A study of Mus musculus with 6 samples.

Results

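Hearts of mice given carfilzomib together with electroacupuncture were compared with hearts of mice given the vehicle. This comparison used 4 of the 6 libraries of the study, 2 per group. It covered the genes whose level averaged at least 1 FPKM (read fragments scaled to transcript length and to sequencing depth) over the 6 libraries, 10329 of 26835 genes. All mice were C57BL/6, 7 to 8 weeks old and 20 g ± 2 in weight, and their genotype is given as "wide type". The control mice were injected intraperitoneally with DMSO at 10%. The CFZ_EA mice received carfilzomib at 8 mg/kg by the same route and electroacupuncture at the acupoint PC6, in which a current is passed through needles placed on the forelimb. Another group, CFZ, received carfilzomib at 8 mg/kg without electroacupuncture. Its 2 libraries entered the fit so that all groups shared 1 estimate of the spread, and its values stand beside those of the compared groups. Days 0, 2, 4 and 6 are listed for every library, with no event tied to a day. CFZ_EA differed from control in both the drug and the electroacupuncture, which this contrast on its own cannot tell apart, and none of the 6 libraries had electroacupuncture without carfilzomib.

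Carfilzomib is a drug against multiple myeloma that binds the proteasome irreversibly at its chymotrypsin-like site, and it can harm the heart. The proteasome degrades proteins tagged with ubiquitin, among them misfolded proteins exported from the endoplasmic reticulum (ER), and it cuts the peptides that class I major histocompatibility molecules present. When misfolded proteins collect in the ER, the sensors IRE1, PERK and ATF6 start the unfolded protein response, in which XBP1 and ATF6 activate the genes of ER chaperones.

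The libraries held between 50013990 and 75742448 estimated counts. Control replicate 2 stood apart from the rest: in a principal component analysis of log2 CPM (counts scaled to the library total) the first component held 37.2% of the variance, and there it lay at 48.0 and the other libraries between -22.1 and 0.37. The control libraries differed by more than 2-fold, on log2(FPKM + 1), in 473 genes, against 165 genes between the CFZ_EA libraries and 183 between the CFZ libraries. The share of counts from mitochondrially encoded genes was 14.8% in control replicate 2 and ran from 17.9% to 21.3% elsewhere. Results are therefore given with both controls and again with control replicate 1 alone. In the second case control is a single library, assumed to vary like the other groups. The tissue label was checked against markers. Myh6, the adult cardiac myosin heavy chain of the mouse, measured 3159 to 3574 FPKM in the 6 libraries. The fast skeletal myosins Myh1 and Myh2 stayed at or below 0.0076 FPKM. Of 7 lung epithelial markers only Ager was among the 26835 genes, at or below 0.163 FPKM, so the lung check rests on 1 gene.

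No gene passed the test between CFZ_EA and control. edgeR's quasi-likelihood test, adjusted by the Benjamini-Hochberg method, called 0 genes higher and 0 lower (0% of the 10329 genes in each direction), with a smallest adjusted p = 0.464. At an unadjusted p under 0.05 it gave 152 genes higher (1.47%) and 378 lower (3.66%), where chance alone gives 516 in both directions together. DESeq2's Wald test on the same counts called 26 higher and 25 lower. With control replicate 1 alone, edgeR called 1 gene higher (0.00968%) and 0 lower (0%), and its unadjusted p was under 0.05 in 164 genes on the higher side (1.59%) and 146 on the lower (1.41%), while DESeq2 called 58 higher and 17 lower. With control replicate 2 as the single control, edgeR called 20 genes higher and 211 lower. Log2 fold changes were above 0 in 5135 genes (49.7%) and below 0 in 5194 (50.3%), with a median of -0.0013 over all genes. Without control replicate 2 these counts were 5223 (50.6%) and 5106 (49.4%). Between the 530 genes under the unadjusted threshold with both controls and the 310 with control replicate 1 alone, 148 genes were shared in the same direction, 60 higher and 88 lower, which is 27.9% of the first list and 47.7% of the second. The FPKM values of the CFZ_EA and control libraries did not overlap in 1082 genes that were higher in CFZ_EA (10.5%) and 2287 genes that were lower (22.1%). Because 0 genes were called, the values below describe these libraries, and the lists are described by counts and medians beside the same figures over all genes tested.

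**Figure D1:**
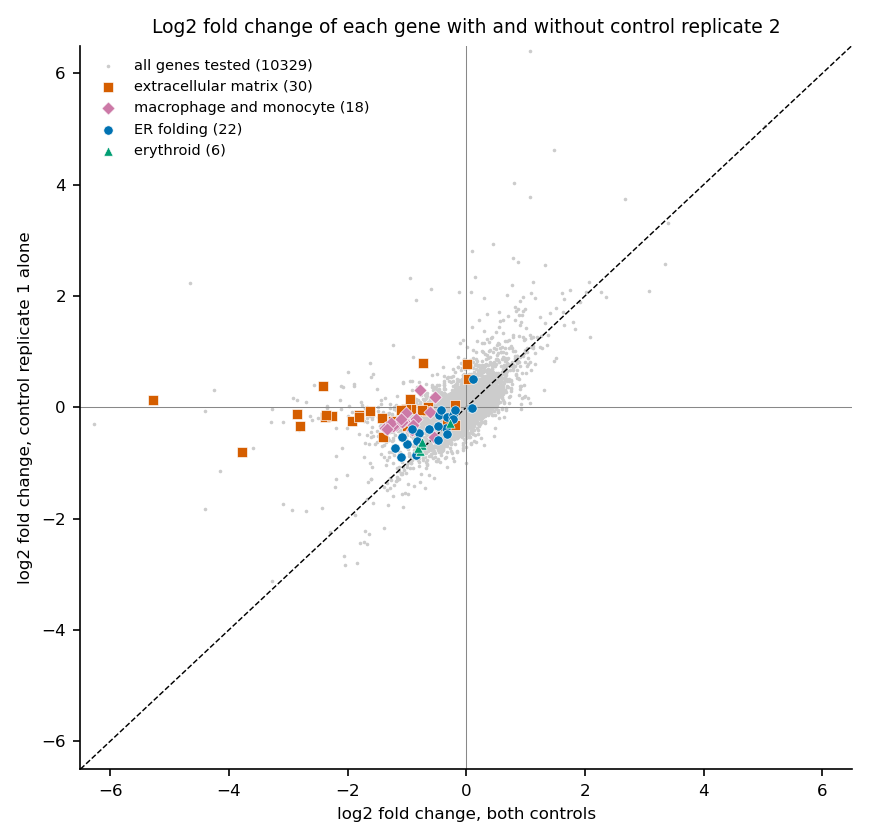
Log2 fold change of CFZ_EA over control for each gene tested, with both controls on the x axis and with control replicate 1 alone on the y axis; coloured points are 4 gene lists, the dashed line marks equal values, and 8 genes lie outside the axes. The 22 ER folding and 6 erythroid genes lie near the dashed line, whereas many of the 30 extracellular matrix and 18 macrophage genes lie far to the left of it and near 0 on the y axis.

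The gene called without control replicate 2 was Rps2-ps10, a processed pseudogene of the ribosomal protein gene Rps2 (ENSMUSG00000091957). It was outside the rule for named genes, which leaves out pseudogenes, and was chosen after its values were seen. Rps2-ps10 measured 1.75 and 32.2 FPKM in control, 40.2 and 34.6 in CFZ, and 43.1 and 43.9 in CFZ_EA. Control replicate 1 was thus the library that stood apart. The log2 fold change was 4.61 ± 0.19 (SE; edgeR, Benjamini-Hochberg adjusted p = 0.0125) without control replicate 2 and 1.48 ± 1.04 with both controls (adjusted p = 0.866). Its reads may be shared with Rps2 and other near-identical copies, so its level is uncertain.

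Of 43 gene lists, 38 had at least 5 tested members. The plot of list medians shows 2 main kinds of lower list. In the first the median moved less without control replicate 2 (ER folding, antigen presentation, erythroid, and interferon response at -0.37 and -0.27). In the second the median came much closer to 0 without it (extracellular matrix, fibroblast, macrophage, complement, cytokines). The epicardial list, at -2.05 with both controls and -1.08 without control replicate 2, lay between these kinds. The higher lists had medians below 0.5.

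**Figure D2:**
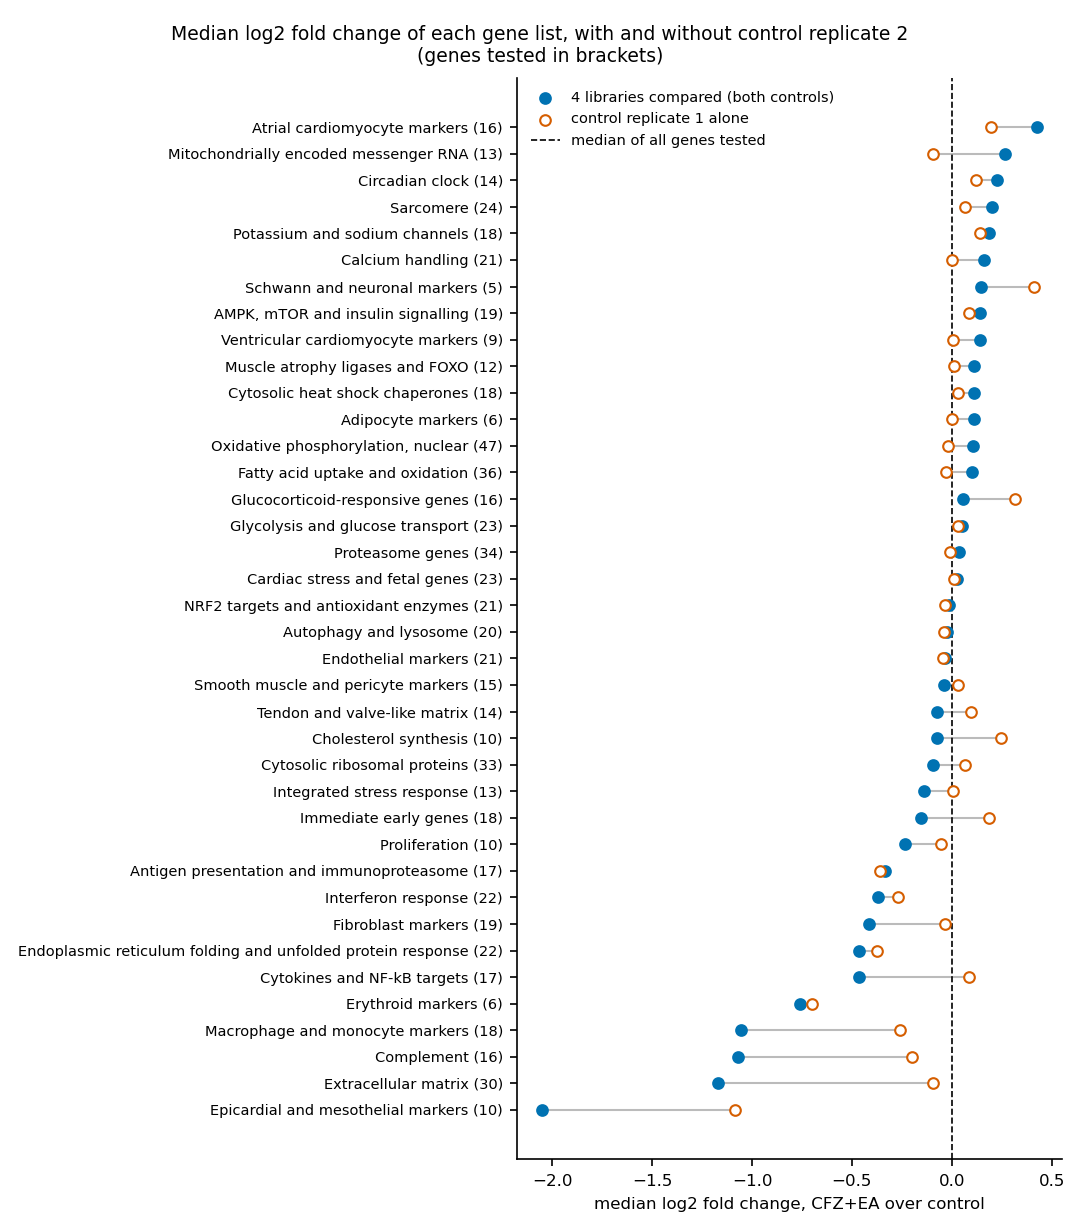
Median log2 fold change of CFZ_EA over control for 38 gene lists (number of tested genes in brackets), with both controls (filled) and with control replicate 1 alone (open); the dashed line is the median of all genes tested, -0.0013. The ER folding list has medians of -0.46 and -0.37, and the extracellular matrix list -1.17 and -0.10.

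Genes of protein folding in the ER were lower in CFZ_EA than in control in nearly the whole list, without any gene passing the test. Of 24 genes for ER chaperones, disulphide isomerases, ER-associated degradation and the sensors of the unfolded protein response, 22 were tested, and 19 of these had log2 fold changes below 0. The median was -0.46, against -0.0013 over all genes. In 18 of 22 genes (81.8%) both CFZ_EA libraries lay below both control libraries, against 22.1% of all genes, and 10 had an unadjusted p under 0.05 in this direction, against 3.66% of all genes. With control replicate 1 alone, 21 of 22 lay below 0, the median was -0.37, and 10 were again under the unadjusted threshold, against 1.41% of all genes. Leaving out 1 of the 4 libraries at a time gave medians from -0.66 (without control replicate 1) to -0.37.

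**Figure D3:**
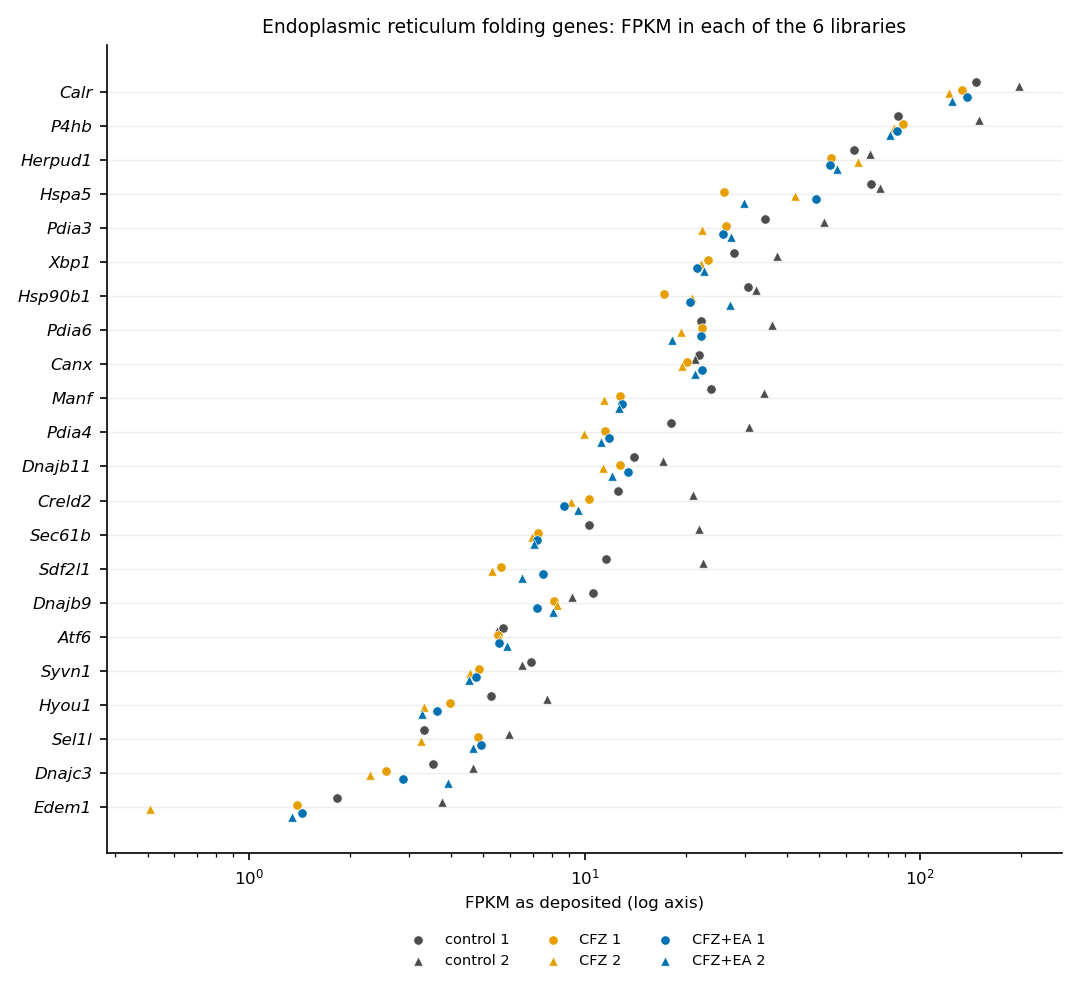
FPKM (log axis) of the 22 tested ER folding genes in each of the 6 libraries, ordered by mean level; colours mark the groups (control, CFZ = carfilzomib, CFZ+EA = carfilzomib plus electroacupuncture) and shapes the replicates. In 18 of 22 genes both CFZ+EA points lie left of both control points; the exceptions are Canx, Dnajc3, Sel1l and Atf6.

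A short promoter sequence was found in a part of this list. The list was made of known ER folding genes, the kind that this sequence is known to regulate. Its frequency therefore describes the list and not the difference between the groups. The ER stress response element, CCAAT and CCACG with any 9 bases between them, is the sequence through which ATF6 with NF-Y activates chaperone genes. The search covered both strands of the 250 bases before each gene start in RefSeq (GRCm38.p6). Over all 27025 genes with a promoter entry, tested here or not, the element was found in 35 (0.13%). It was found in 8 of the 19 list genes with an entry (42.1%). The 8 were Hspa5, Hsp90b1, Pdia6, Calr, Canx, Dnajc3, Creld2 and Syvn1. The related second element, ATTGG and CCACG with any 1 base between them, was found in 1 list gene, Herpud1, and in 10 genes overall (0.037%), and its matches did not share a list gene with the first element. Canx and Dnajc3, which hold the element, are among the genes whose groups overlapped. A match is a description of these letters and not evidence of a bound site. For Hspa5 only 30 bases are printed, because 120 bases of its window are exonic in GENCODE, whose Hspa5 model starts at 34771970. The printed bases and their element lie within the exonic bases. The element is in capitals here for 3 genes of different roles: the chaperone Hspa5 (chr2:34772020-34772049, plus strand), the ER protein Creld2 (chr15:88819396-88819645, plus strand, the element on the opposite strand) and the ubiquitin ligase Syvn1 (chr19:6046326-6046575, plus strand).
Hspa5: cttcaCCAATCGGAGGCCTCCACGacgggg
Creld2: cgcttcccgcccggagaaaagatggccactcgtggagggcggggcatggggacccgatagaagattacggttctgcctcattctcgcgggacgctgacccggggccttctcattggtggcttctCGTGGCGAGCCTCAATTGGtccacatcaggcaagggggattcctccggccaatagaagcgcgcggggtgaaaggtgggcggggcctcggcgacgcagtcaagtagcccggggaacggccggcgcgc
Syvn1: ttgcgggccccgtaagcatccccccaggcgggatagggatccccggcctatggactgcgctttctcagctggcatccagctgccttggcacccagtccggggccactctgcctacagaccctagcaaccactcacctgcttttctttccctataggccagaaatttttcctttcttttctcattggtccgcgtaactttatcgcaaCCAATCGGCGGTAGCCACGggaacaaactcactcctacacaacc

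Hspa5 encodes BiP, the main chaperone of the ER lumen and the protein that holds the 3 sensors inactive. It measured 71.3 and 75.7 FPKM in control, 26.1 and 42.3 in CFZ, and 48.9 and 29.8 in CFZ_EA. The CFZ_EA libraries lay below both controls but differed from each other, and the log2 fold change was -0.84 ± 0.32 with both controls and -0.86 ± 0.40 with control replicate 1 alone. Manf, an ER protein secreted under ER stress, measured 23.8 and 34.2 FPKM in control, 12.8 and 11.4 in CFZ, and 12.9 and 12.7 in CFZ_EA. The difference between the groups was larger than the spread within either, at -1.10 ± 0.15 with both controls and -0.90 ± 0.13 with control replicate 1 alone (edgeR, Benjamini-Hochberg adjusted p = 0.467 and 0.319). Its model overlaps another on the same strand, and with both summed the value was -0.91.

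The same order was seen for folding factors further down the pathway. Sdf2l1, a partner of BiP, measured 11.6 and 22.6 FPKM in control, 5.64 and 5.30 in CFZ, and 7.52 and 6.52 in CFZ_EA, a log2 fold change of -1.20 ± 0.29. Pdia4, a disulphide isomerase, measured 18.1 and 30.8 in control, 11.5 and 9.99 in CFZ, and 11.8 and 11.2 in CFZ_EA, a log2 fold change of -1.004 ± 0.22. Hyou1, a nucleotide exchange factor for BiP, measured 5.28 and 7.75 in control, 3.96 and 3.33 in CFZ, and 3.64 and 3.28 in CFZ_EA. Control replicate 2 was the highest library for all 3, and the log2 fold changes without it were -0.72 ± 0.20, -0.65 ± 0.14 and -0.61 ± 0.16. The 6 libraries of Creld2 and Syvn1 followed the same pattern. Creld2 measured 12.6 and 21.1 FPKM in control, 10.3 and 9.10 in CFZ, and 8.69 and 9.54 in CFZ_EA. Syvn1, which tags ER proteins for degradation, measured 6.94 and 6.52 in control, 4.84 and 4.56 in CFZ, and 4.75 and 4.54 in CFZ_EA, and its log2 fold change was larger without control replicate 2 (-0.58 ± 0.14) than with it (-0.47 ± 0.13).

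The sensors and transcription factors of the response were not of 1 kind. Xbp1, the transcription factor spliced by IRE1, measured 27.9 and 37.5 FPKM in control and 21.7 and 22.8 in CFZ_EA, a log2 fold change of -0.48 ± 0.13. Atf6 measured 5.73 and 5.47 in control and 5.57 and 5.87 in CFZ_EA, so that the groups overlapped. Canx, the membrane chaperone calnexin, measured 21.9 and 21.3 in control and 22.4 and 21.3 in CFZ_EA. Hspa5, Creld2, Syvn1, Xbp1, Atf6 and Canx were chosen after their values were seen. With both controls the adjusted p of Sdf2l1, Pdia4, Hyou1, Hspa5, Creld2, Syvn1 and Xbp1 was 0.848 in edgeR's test (Benjamini-Hochberg). DESeq2, also with both controls, called Manf, Pdia4, Hyou1 and Sdf2l1. Of 13 tested genes of the integrated stress response, the PERK branch that ends in ATF4, 3 lay above 0, with a median of -0.14 and 0 under the unadjusted threshold, and 7 lay above 0 without control replicate 2 (median 0.0038).

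Genes of antigen presentation were lower in CFZ_EA. The list joins class I and class II major histocompatibility genes, peptide transporters and the inducible proteasome subunits. Of 17 tested genes 15 had log2 fold changes below 0, with a median of -0.34, and 16 did so without control replicate 2, with a median of -0.36. The groups did not overlap in 12 genes (70.6%), all lower in CFZ_EA, against 22.1% of all genes, and 6 were lower at an unadjusted p under 0.05 with both controls (3.66% of all genes) and 3 with control replicate 1 alone (1.41%). H2-Aa, a class II alpha chain, measured 20.7 and 22.4 FPKM in control, 14.6 and 15.3 in CFZ, and 13.5 and 14.6 in CFZ_EA. Its log2 fold change was -0.55 ± 0.12 with both controls and -0.57 ± 0.15 with control replicate 1 alone. H2-Ab1, its beta chain partner, measured 24.6 and 27.7 in control and 18.0 and 14.4 in CFZ_EA. B2m, which pairs with the heavy chains of class I, measured 335 and 351 FPKM in control, 232 and 252 in CFZ, and 269 and 245 in CFZ_EA, a log2 fold change of -0.35 ± 0.12. H2-T23, a non-classical class I gene, measured 14.1 and 19.4 in control and 11.7 and 12.1 in CFZ_EA. Both CFZ_EA libraries lay below both controls in these 4 genes, and for H2-Aa, H2-Ab1 and B2m the control replicates lay close together. DESeq2 called H2-Aa. Class II genes are made mainly by immune cells. In whole hearts, fewer cells of a type and less RNA per cell cannot be told apart.

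The interferon list overlapped this pattern in its counts but leaned more on control replicate 2 in its genes of largest difference. Interferons switch on antiviral genes, many of which carry a repeated GAAA motif before their start. Of 22 tested genes 20 lay below 0 with both controls (median -0.37) and 21 without control replicate 2 (median -0.27). The groups did not overlap in 14 genes (63.6%), all lower in CFZ_EA, against 22.1% of all genes. At an unadjusted p under 0.05, 7 were lower with both controls (3.66% of all genes), but 0 with control replicate 1 alone (1.41%). The list was made of known interferon-responsive genes, so a motif's frequency describes the list and not the difference between the groups. The motif of 2 GAAA runs with any 2 bases between them was searched on both strands over the same promoter windows. It was found in 10 of 15 list genes with an entry (66.7%) and in 936 of 27025 genes (3.46%). It is shown in capitals for Oas1a (chr5:120907526-120907775, minus strand) and Bst2 (chr8:71537473-71537722, minus strand), each of which holds 2 overlapping matches and is among the list's genes of smallest p.
Oas1a: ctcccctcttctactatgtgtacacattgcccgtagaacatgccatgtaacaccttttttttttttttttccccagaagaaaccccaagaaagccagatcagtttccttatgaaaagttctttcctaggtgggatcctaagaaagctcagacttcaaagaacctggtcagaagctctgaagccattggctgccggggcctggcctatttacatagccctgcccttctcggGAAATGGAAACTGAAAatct
Bst2: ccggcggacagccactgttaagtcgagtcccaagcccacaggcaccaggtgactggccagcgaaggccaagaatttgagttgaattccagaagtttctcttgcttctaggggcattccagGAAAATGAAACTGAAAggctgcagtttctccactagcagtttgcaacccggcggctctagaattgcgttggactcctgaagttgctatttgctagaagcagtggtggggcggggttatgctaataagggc

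Oas1a, which makes the second messenger that activates RNase L, measured 2.81 and 9.81 FPKM in control, 2.15 and 2.59 in CFZ, and 1.91 and 2.05 in CFZ_EA. Control replicate 2 was far above the other 5 libraries, and the log2 fold change was -1.57 ± 0.52 with it and -0.51 ± 0.27 without it. Irf7, the transcription factor that amplifies interferon production, measured 3.39 and 8.72 in control and 2.46 and 2.80 in CFZ_EA, with log2 fold changes of -1.11 ± 0.40 and -0.37 ± 0.23. Oasl2 measured 2.12 and 5.35 in control and 1.37 and 1.79 in CFZ_EA. Bst2, the tether of budding viruses, measured 44.5 and 74.3 in control, 40.9 and 39.3 in CFZ, and 40.0 and 35.1 in CFZ_EA. Both CFZ_EA libraries lay below control replicate 1 as well in all 4 genes, by less than they lay below control replicate 2.

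Red cell genes were lower in CFZ_EA with either choice of control. All 6 tested erythroid markers lay below 0, with a median of -0.76 with both controls and -0.70 without control replicate 2. The groups did not overlap in 6 of 6 genes, against 22.1% of all genes lower, and 5 were lower at an unadjusted p under 0.05, against 3.66% of all genes (4 without control replicate 2, against 1.41%). Alas2, the first enzyme of haem synthesis in red cells, measured 12.4 and 16.0 FPKM in control, 7.12 and 7.95 in CFZ, and 7.14 and 8.93 in CFZ_EA, a log2 fold change of -0.74 ± 0.19. The alpha globin Hba-a1 measured 1310 and 1400 in control, 684 and 855 in CFZ, and 635 and 877 in CFZ_EA, and the beta globin Hbb-bt measured 704 and 854, 385 and 488, and 350 and 497. The replicates of CFZ_EA differed more than those of control, and the list median was -1.04 without CFZ_EA replicate 2 and -0.54 without CFZ_EA replicate 1. The split of reads between Hba-a1 and its near-identical copy Hba-a2 is uncertain. The labels give no step that removes blood from the heart, and the amount of blood in each heart was not tested.

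Markers of the epicardium, the mesothelial sheet on the surface of the heart, had the largest negative median of the lists. All 10 tested genes of 16 lay below 0, with a median of -2.05 with both controls and -1.08 without control replicate 2 (9 of 10 below 0). The groups did not overlap in 8 of 10 genes (80%), against 22.1% of all genes. At an unadjusted p under 0.05, 7 were lower with both controls and 4 with control replicate 1 alone, against 3.66% and 1.41% of all genes. Msln, mesothelin, measured 3.67 and 11.01 FPKM in control, 0.902 and 1.12 in CFZ, and 1.13 and 1.85 in CFZ_EA, with log2 fold changes of -2.19 ± 0.52 and, without control replicate 2, -1.29 ± 0.36. Krt19 and Krt8, keratins of simple epithelia, measured 4.49 and 12.7, and 1.58 and 5.599 FPKM in control, against 0.598 and 1.84, and 0.240 and 0.624 in CFZ_EA. In CFZ they measured 0.484 and 0.303, and 0.108 and 0.131. Krt8 was thus below 1 FPKM in every CFZ and CFZ_EA library. It passed the level filter, a mean over the 6 libraries, through its control values. For such genes a lower level in CFZ_EA was partly set by the filter, and so were the list's counts and median. Upk1b, a uroplakin, measured 1.99 and 5.28 in control and 0.446 and 1.004 in CFZ_EA. In each of these 4 genes control replicate 2 was highest, control replicate 1 next and CFZ_EA replicate 2 above CFZ_EA replicate 1. The list median was -1.501 without CFZ_EA replicate 1 and -2.55 without CFZ_EA replicate 2. DESeq2 called Msln, Krt8 and Krt19 with both controls. How much of the heart's surface and of tissue attached to it entered each library was not tested.

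**Figure D4:**
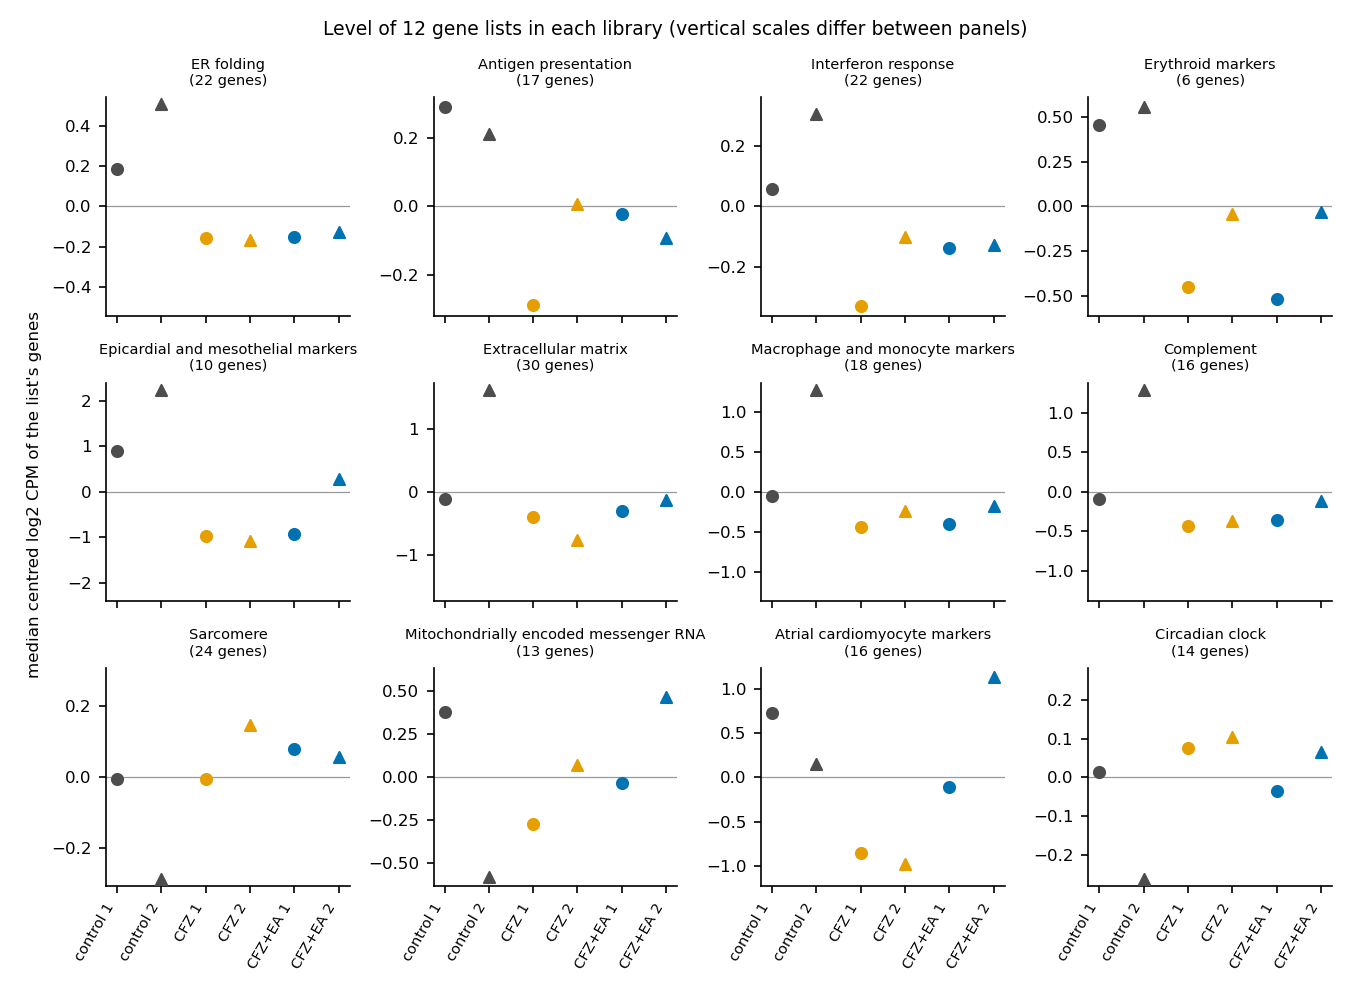
Level of 12 gene lists in each library, as the median over a list's genes of log2 CPM centred on each gene's mean over the 6 libraries; vertical scales differ between panels, colours mark groups (control, CFZ and CFZ+EA) and shapes replicates. ER folding, antigen presentation and erythroid genes are higher in both controls than in both CFZ+EA libraries, whereas matrix, macrophage and complement genes are high in control replicate 2 alone, and atrial genes are highest in CFZ+EA replicate 2.

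Genes of the extracellular matrix had a low median that rested on 1 library. Of 30 tested genes 28 lay below 0 with both controls (median -1.17), 14 of them at an unadjusted p under 0.05 (3.66% of all genes), and 13 did not overlap between the groups (43.3%, against 22.1% of all genes). With control replicate 1 alone 23 lay below 0 and the median was -0.10. Sparc, a collagen-binding matrix protein, measured 140 and 408 FPKM in control, 105 and 82.1 in CFZ, and 88.9 and 105 in CFZ_EA, with log2 fold changes of -1.40 ± 0.44 and, without control replicate 2, -0.53 ± 0.18. Timp1, an inhibitor of matrix proteases, measured 6.49 and 105 in control and 2.78 and 4.60 in CFZ_EA. Tnc, tenascin C, measured 0.102 and 9.47 in control and 0.120 and 0.104 in CFZ_EA, and its log2 fold change of -5.28 ± 1.81 reversed to 0.13 ± 0.68 without control replicate 2. Of these values of Tnc only control replicate 2 reached 1 FPKM, so a lower level of Tnc was partly set by the level filter. The matrix protease Mmp2 measured 24.97 and 59.0 in control and 20.0 and 19.6 in CFZ_EA. Sparc, Timp1 and Mmp2 kept a lower level in both CFZ_EA libraries than in control replicate 1.

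Fibroblast markers followed the matrix list with smaller differences: 17 of 19 lay below 0 with both controls (median -0.42) and 13 of 19 without control replicate 2 (median -0.03). Pi16, a marker of adventitial fibroblasts, measured 9.55 and 22.3 FPKM in control and 6.88 and 8.65 in CFZ_EA. Dpt, dermatopontin, measured 71.4 and 183 in control and 63.7 and 69.6 in CFZ_EA. The 14 tested genes of tendon and valve-like matrix had a median of -0.07 with both controls and 0.10 with control replicate 1 alone. Their centred level was 0.37 and 0.62 in control, -0.85 and -1.14 in CFZ, and 0.28 and 0.40 in CFZ_EA. This list was drawn up with its low level in CFZ in these libraries known, so the CFZ values restate that choice.

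Macrophage and complement genes were high in control replicate 2. All 18 tested macrophage and monocyte markers lay below 0 with both controls (median -1.06, 11 at an unadjusted p under 0.05, against 3.66% of all genes), and 16 did so with control replicate 1 alone (median -0.26, 1 under the unadjusted threshold, against 1.41%). Csf1r, the receptor of the macrophage growth factor, measured 10.3 and 20.96 FPKM in control, 7.59 and 7.55 in CFZ, and 7.30 and 8.27 in CFZ_EA. Its log2 fold change was -0.92 ± 0.29 with both controls and -0.40 ± 0.15 without control replicate 2. Lyz2, lysozyme, measured 158 and 475 in control and 113 and 138 in CFZ_EA. Of 16 complement genes 15 lay below 0 with both controls (median -1.07) and 14 without control replicate 2 (median -0.20). C3, the central component, measured 29.4 and 174 in control and 24.3 and 28.2 in CFZ_EA, so that replicate 1 and CFZ_EA replicate 2 were close, and C4b measured 4.70 and 21.7 against 4.03 and 4.10.

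Cytokine genes and their targets under NF-kB changed sign in the median between the choices of control, from -0.47 to 0.09, with 3 and 12 of 17 genes above 0. Ccl8, a chemokine for monocytes, measured 1.62 and 69.9 FPKM in control and 2.02 and 1.05 in CFZ_EA, and Ccl6 measured 6.21 and 27.4 against 5.12 and 5.94. Markers of other blood cells were scarce. The neutrophil gene S100a9 measured 1.17 and 16.5 FPKM in control and 5.64 and 3.45 in CFZ_EA, Ly6g stayed at or below 0.0708 in the 6 libraries, and 1 of 10 T and NK cell markers reached the level filter. Igkc, the kappa light chain of antibodies, measured 3.94 and 55.2 in control and 4.14 and 3.45 in CFZ_EA. These genes were named after their values were seen, to describe control replicate 2. The part of immune cells in control replicate 2 in the lower lists above was not tested.

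Contractile genes of the heart muscle cell were slightly higher in CFZ_EA. Of 24 tested sarcomere genes 22 lay above 0 with both controls (median 0.20) and 17 with control replicate 1 alone (median 0.07). The groups did not overlap in 12 genes higher in CFZ_EA (50%), against 10.5% of all genes. With both controls 2 were higher at an unadjusted p under 0.05 in edgeR's test, against 1.47% of all genes. Tnni3, cardiac troponin I, measured 2179 and 2396 FPKM in control, 2926 and 2970 in CFZ, and 2743 and 2679 in CFZ_EA, a log2 fold change of 0.31 ± 0.16 with either choice of control. Mybpc3, cardiac myosin-binding protein C, measured 797 and 706 in control and 969 and 874 in CFZ_EA. Cmya5, myospryn, which binds desmin, measured 21.1 and 20.8 in control, 20.3 and 20.2 in CFZ, and 24.5 and 26.7 in CFZ_EA, and its log2 fold change was 0.35 ± 0.12.

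The fetal and adult myosin genes differed in pattern. Myh7, the slow myosin heavy chain that is more abundant in fetal and failing mouse hearts, measured 60.7 and 60.8 FPKM in control, 61.6 and 62.5 in CFZ, and 121 and 65.8 in CFZ_EA. Only CFZ_EA replicate 1 stood clear of the other 5 libraries, and the log2 fold change of 0.68 ± 0.27 was 0.20 without that library. Myh6 had a log2 fold change of 0.16 ± 0.22. The natriuretic peptide Nppb, a marker of wall stress, measured 266 and 114 in control and 245 and 189 in CFZ_EA, and its log2 fold change was 0.23 ± 0.65 with both controls and reversed to -0.30 ± 0.68 without control replicate 2. The 23 tested genes of cardiac stress and fetal reactivation had 12 above 0 and a median of 0.02, which was -0.19 without CFZ_EA replicate 2.

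Atrial genes differed between the 2 CFZ_EA libraries more than between the groups. Of 16 tested atrial markers 15 lay above 0 with both controls (median 0.43) and 9 without control replicate 2 (median 0.19). With both controls kept, the median was 0.93 without CFZ_EA replicate 1 and -0.62 without CFZ_EA replicate 2. Nppa, the atrial natriuretic peptide, measured 1887 and 1084 FPKM in control, 233 and 187 in CFZ, and 646 and 3882 in CFZ_EA. The CFZ_EA libraries enclosed both controls, and the log2 fold change of 0.67 ± 0.77 reversed to -1.17 without CFZ_EA replicate 2. The centred level of the atrial list was 0.73 and 0.15 in control, -0.85 and -0.98 in CFZ, and -0.11 and 1.13 in CFZ_EA. The share of atrial tissue in each library was not tested. The 9 ventricular markers had a median of 0.14, and 0.0073 without control replicate 2.

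The medians of 4 lists of energy metabolism were above 0 with both controls and nearer to 0 without control replicate 2. Of 47 nuclear genes of oxidative phosphorylation 44 lay above 0 with both controls (median 0.11) and 13 with control replicate 1 alone (median -0.02). The groups did not overlap in 3 genes in each direction (6.38% each way), below the shares over all genes of 10.5% higher and 22.1% lower. Atp5o, a subunit of ATP synthase, measured 673 and 636 FPKM in control, 712 and 641 in CFZ, and 559 and 538 in CFZ_EA, and Ndufb5, of complex I, measured 62.0 and 59.0, 68.7 and 70.9, and 50.6 and 48.5. In these 2 genes both CFZ_EA libraries lay below the other 4, against the direction of the list. All 13 mitochondrially encoded messenger RNAs lay above 0 with both controls (median 0.27) and 2 did so without control replicate 2 (median -0.09). Leaving out control replicate 1 raised this median to 0.84, and leaving out CFZ_EA replicate 2 brought it to 0.00165. It was -0.43 without both control replicate 2 and CFZ_EA replicate 2. mt-Nd5, a complex I subunit, measured 2994 and 1726 in control, 1990 and 1974 in CFZ, and 2500 and 3254 in CFZ_EA, and its log2 fold change of 0.33 ± 0.33 reversed to -0.06 ± 0.22 without control replicate 2. Fatty acid genes had 31 of 36 above 0 (median 0.10) and 11 of 36 without control replicate 2 (median -0.03), and glycolysis genes had 17 of 23 above 0 in both cases (medians 0.05 and 0.03).

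Calcium handling and ion channel genes held differences in both directions. Of 21 calcium genes 15 lay above 0 with both controls (median 0.16) and 10 without control replicate 2 (median -0.00035). With both controls an unadjusted p under 0.05 in edgeR's test was reached by 2 genes above 0, against 1.47% of all genes. It was reached by 2 genes below 0, against 3.66% of all genes. Camk2g and Camk2d, 2 isoforms of the calmodulin-dependent kinase, stood on opposite sides. Camk2g measured 2.36 and 4.00 FPKM in control, 4.49 and 5.28 in CFZ, and 4.33 and 5.63 in CFZ_EA, a log2 fold change of 0.73 ± 0.26. Camk2d, the main cardiac isoform, measured 2.21 and 1.85 in control, 2.85 and 2.04 in CFZ, and 1.40 and 1.34 in CFZ_EA, a log2 fold change of -0.51 ± 0.19. Cacna2d1, an auxiliary subunit of the L-type calcium channel, measured 3.57 and 3.13 in control, 3.72 and 3.82 in CFZ, and 2.04 and 0.811 in CFZ_EA, and its log2 fold change of -1.18 ± 0.40 ran from -1.96 to -0.67 with 1 library left out. Slc8a1, the sodium-calcium exchanger, measured 4.53 and 4.14 in control and 6.49 and 4.92 in CFZ_EA. Of 18 potassium and sodium channel genes 16 lay above 0 (median 0.19) and 14 without control replicate 2 (median 0.14). Kcnj12, an inward rectifier, measured 4.17 and 4.90 in control, 7.39 and 4.91 in CFZ, and 7.24 and 6.44 in CFZ_EA, and Kcnip2, the partner of the transient outward channel, 41.0 and 34.9, 50.4 and 56.4, and 61.8 and 47.0.

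Several clock genes lay apart from control in both carfilzomib groups. Of 14 tested clock genes 10 lay above 0 (median 0.23; 0.12 without control replicate 2), and an unadjusted p under 0.05 was reached by 3 genes above 0 and 1 below with either choice of control, against 1.47% and 3.66% of all genes with both controls. Nr1d1, the nuclear receptor REV-ERB alpha, measured 19.0 and 21.5 FPKM in control, 38.4 and 26.5 in CFZ, and 30.9 and 34.9 in CFZ_EA, a log2 fold change of 0.77 ± 0.17 with both controls and 0.79 ± 0.22 without control replicate 2. Dbp, a clock output factor, measured 6.12 and 6.35 in control, 13.5 and 10.5 in CFZ, and 8.79 and 13.1 in CFZ_EA, a log2 fold change of 0.88 ± 0.23. Nfil3, the repressor that opposes Dbp, measured 11.995 and 12.6 in control and 9.07 and 7.85 in CFZ_EA, a log2 fold change of -0.47 ± 0.17. With both controls the adjusted p of these 3 genes was 0.848 (edgeR, Benjamini-Hochberg) and DESeq2 called Nr1d1. The E-box CACGTG, the site of the CLOCK and BMAL1 pair, was found in the promoter windows of 4 of 13 clock genes with an entry (30.8%). These were Per1, Cry1, Tef and Bhlhe41. Over all 27025 genes with an entry, tested here or not, the share was 6.86%. The list was made of known clock genes, so this frequency describes the list and not the difference between the groups. The labels used here give no hour of the day at which hearts were taken, and its part was not tested.

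Glucocorticoid-responsive genes had a median of 0.05 with both controls and 0.32 without control replicate 2 (11 and 13 of 16 above 0), but -0.12 without control replicate 1 or CFZ_EA replicate 1. Zbtb16 measured 0.913 and 0.953 FPKM in control, 1.66 and 1.37 in CFZ, and 1.54 and 1.32 in CFZ_EA, a log2 fold change of 0.68 ± 0.18. Both control values of Zbtb16 lay below 1 FPKM, so a higher level in CFZ_EA was partly set by the level filter. Per1, a clock gene that glucocorticoids induce, measured 1.71 and 3.39 in control and 4.97 and 3.33 in CFZ_EA, and Klf9 measured 4.82 and 3.15 in control and 5.74 and 6.32 in CFZ_EA. The groups overlapped for Per1 and did not for Zbtb16 and Klf9. Immediate early genes had 5 of 18 above 0 with both controls and 12 without control replicate 2. Fos among them measured 0.433 and 3.83 in control and 0.438 and 0.837 in CFZ_EA, and its log2 fold change of -1.61 ± 0.92 reversed to 0.55 ± 0.58.

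The drug's own target and its partners differed little. The proteasome list holds subunits together with the activator Psme4, the assembly factor Pomp and the transcription factor Nfe2l1. Of its 34 tested genes 21 lay above 0 with both controls (median 0.03) and 16 without control replicate 2 (median -0.0094). With both controls 1 gene was higher at an unadjusted p under 0.05 in edgeR's test, against 1.47% of all genes. It was Nfe2l1, not a subunit. Psmb5, which carries the site that carfilzomib binds, measured 126 and 136 FPKM in control, 130 and 145 in CFZ, and 128 and 128 in CFZ_EA, a log2 fold change of 0.04 ± 0.12. Nfe2l1, the factor that raises proteasome genes when the proteasome is blocked, measured 13.2 and 14.8 in control, 16.8 and 12.8 in CFZ, and 16.5 and 17.2 in CFZ_EA, a log2 fold change of 0.33 ± 0.13. Cytosolic heat shock chaperones had 10 of 18 above 0 with either choice of control (median 0.11, and 0.03 without control replicate 2). Hsph1 measured 2.21 and 2.45 in control and 3.03 and 3.36 in CFZ_EA, whereas Hspa8, the constitutive HSC70, measured 239 and 257 in control, 232 and 271 in CFZ, and 199 and 201 in CFZ_EA. NRF2 targets had 9 of 21 above 0 (median -0.01) and 7 of 21 without control replicate 2 (median -0.03). Hmox1 among them, haem oxygenase, measured 4.88 and 18.8 in control and 3.55 and 3.67 in CFZ_EA. Autophagy and lysosome genes had 9 of 20 above 0 (median -0.02) and 7 of 20 without control replicate 2 (median -0.04). Tfeb, their master regulator, measured 6.27 and 6.82 in control, 6.32 and 3.72 in CFZ, and 4.25 and 3.30 in CFZ_EA, a log2 fold change of -0.73 ± 0.24.

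Genes outside the lists with small p are described in 2 patterns of their CFZ values, which not every such gene followed. Rab5c lay between the patterns, at 28.5 and 30.2 FPKM in control, 19.7 and 23.8 in CFZ, and 16.9 and 17.3 in CFZ_EA. CFZ and CFZ_EA were set against the same 2 control libraries, by which the genes were chosen. A deviation of control would therefore place both groups on the same side. In the first pattern both carfilzomib groups lay away from control. Lifr, the receptor of leukaemia inhibitory factor (ENSMUSG00000054263, chromosome 15, 7090614 to 7197489, GRCm38), had the smallest p of the comparison. It measured 0.597 and 0.735 FPKM in control, 1.92 and 1.72 in CFZ, and 2.12 and 1.79 in CFZ_EA, and its log2 fold change was 1.62 ± 0.16, or 3.08-fold (edgeR, Benjamini-Hochberg adjusted p = 0.464; 0.150 without control replicate 2). With 1 library left out the value lay between 1.52 and 1.72. Nsun4, a methyltransferase of the mitochondrial ribosome, measured 2.85 and 2.19 in control, 6.98 and 6.56 in CFZ, and 6.76 and 5.69 in CFZ_EA, a log2 fold change of 1.35 ± 0.20. Mllt6 measured 7.01 and 8.12, 16.4 and 13.1, and 15.9 and 12.6, and Jmjd4, an oxygenase of the translation release factor, 0.866 and 0.689, 2.17 and 1.92, and 1.94 and 1.68. Riok3 and Golga1 followed the same pattern with log2 fold changes of 0.97 ± 0.13 and 1.08 ± 0.19. Lifr, Jmjd4 and Golga1 were below 1 FPKM in both controls. They passed the level filter, a mean over the 6 libraries, through their carfilzomib groups. For such genes a higher level in CFZ_EA was partly set by the filter. On the lower side Anp32e, a chaperone that removes the histone H2A.Z, measured 10.7 and 10.6 in control, 6.71 and 5.35 in CFZ, and 6.21 and 5.95 in CFZ_EA, a log2 fold change of -0.74 ± 0.14.

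**Figure D5:**
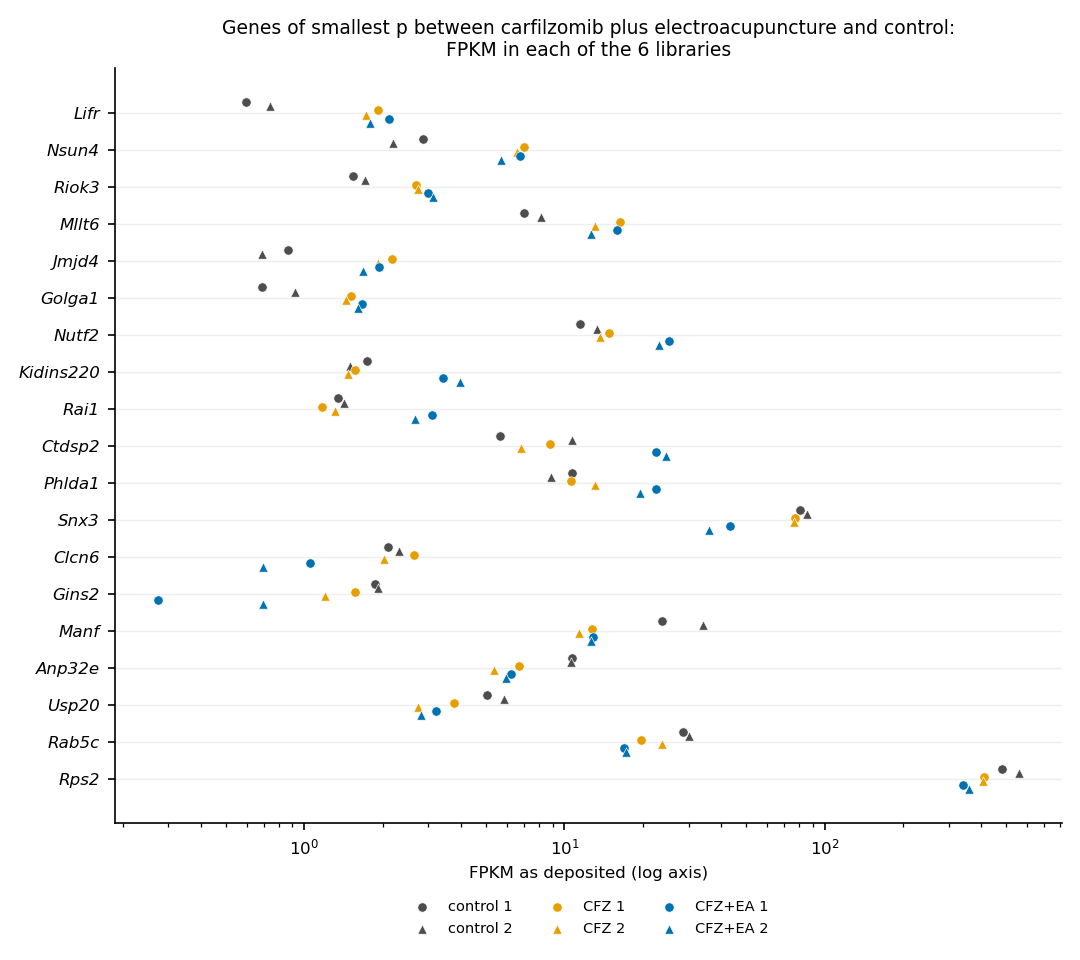
FPKM (log axis) of 19 genes with small p between CFZ_EA and control in each of the 6 libraries; colours mark groups (control, CFZ and CFZ+EA) and shapes replicates. Lifr, Nsun4, Riok3, Mllt6, Jmjd4 and Golga1 have both carfilzomib groups right of control, and Nutf2, Kidins220, Rai1, Ctdsp2, Phlda1, Snx3, Clcn6 and Gins2 have the CFZ+EA libraries apart from the other 4.

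In the second pattern the CFZ libraries lay near control and both CFZ_EA libraries stood apart from the other 4. Nutf2, which carries the GTPase Ran into the nucleus, measured 11.5 and 13.3 FPKM in control, 14.9 and 13.7 in CFZ, and 25.2 and 23.1 in CFZ_EA, a log2 fold change of 1.03 ± 0.12 against control and 0.77 ± 0.12 against CFZ. Kidins220, a scaffold of neurotrophin receptors, measured 1.75 and 1.496, 1.57 and 1.47, and 3.43 and 3.96, with log2 fold changes of 1.24 ± 0.18 and 1.29 ± 0.18. Rai1, a chromatin protein, measured 1.34 and 1.43, 1.17 and 1.31, and 3.10 and 2.67. Ctdsp2, a small phosphatase of the RNA polymerase II tail, measured 5.65 and 10.7 in control, 8.81 and 6.80 in CFZ, and 22.6 and 24.6 in CFZ_EA, with log2 fold changes of 1.61 ± 0.27 against control and 1.61 ± 0.27 against CFZ. Phlda1 measured 10.7 and 8.91, 10.6 and 13.1, and 22.4 and 19.4. On the lower side Snx3, a sorting nexin of the endosome, measured 80.6 and 85.4 in control, 77.0 and 76.3 in CFZ, and 43.4 and 35.9 in CFZ_EA, with log2 fold changes of -1.002 ± 0.12 and -0.94 ± 0.12. Clcn6, an endosomal chloride transporter, measured 2.10 and 2.32, 2.63 and 2.02, and 1.05 and 0.693. Gins2, a subunit of the replicative helicase complex, measured 1.86 and 1.91, 1.57 and 1.21, and 0.273 and 0.697. Both CFZ_EA values of Gins2 lay below 1 FPKM, so its lower level was partly set by the level filter.

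Neither difference was called for these genes. Against control, edgeR's Benjamini-Hochberg adjusted p was 0.467 for Nutf2, Kidins220, Rai1 and Snx3, 0.739 for Ctdsp2 and 0.848 for Phlda1, Clcn6 and Gins2. Against CFZ it was 0.397 for Rai1 and Snx3, 0.442 for Kidins220, 0.543 for Nutf2, 0.560 for Ctdsp2 and Clcn6, and 0.9997 for Phlda1 and Gins2. DESeq2 called all 8 of them against control when both controls were used. Without control replicate 2 the values against control were 1.07 for Nutf2, 1.08 for Kidins220, 1.10 for Rai1, 2.06 for Ctdsp2 and -1.03 for Snx3. Ctdsp2 overlaps another gene model on the same strand, which with both summed gave 1.62. Scamp4 and Lrch4 also had small p, but their log2 fold changes of 1.25 and -1.07 became -0.18 and -0.11 when the overlapping models of each locus were summed, so their levels are uncertain. Pdia4, Tnni3, Psmb5, Hspa8 and Rps2 also overlap a model on the same strand, and with the models summed their values were -0.999, 0.32, 0.04, -0.24 and -0.498. Among the named genes, Kidins220, Rai1, Phlda1, Gins2, Jmjd4, Manf, Syvn1, Rps2, Nr3c2, Irf7, Alas2, Pi16, Csf1r, Cmya5, Myh6, Myh7, Nppa, Ndufb5, Atp5o, mt-Nd5, Nr1d1 and Dbp overlap a gene on the other strand, and whether the counting used strand is not given in the sources used here.

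Insr and Nr3c2 drew their small p from control replicate 1. Insr, the insulin receptor, measured 4.05 and 1.57 FPKM in control, 3.28 and 3.36 in CFZ, and 1.42 and 1.34 in CFZ_EA. Control replicate 2 lay with CFZ_EA and control replicate 1 with CFZ, and the log2 fold change was -0.99 ± 0.44 with both controls and -1.55 ± 0.14 with control replicate 1 alone (edgeR, Benjamini-Hochberg adjusted p = 0.848 and 0.0984). Nr3c2, the mineralocorticoid receptor, measured 0.393 and 1.26 in control, 1.37 and 1.18 in CFZ, and 1.79 and 1.51 in CFZ_EA, with log2 fold changes of 1.09 ± 0.46 and 2.05 ± 0.24. Of 19 genes of AMPK, mTOR and insulin signalling 17 lay above 0 with both controls (median 0.14) and 11 without control replicate 2 (median 0.09). Prkab2, a beta subunit of AMPK, measured 6.69 and 6.41 in control, 6.86 and 5.98 in CFZ, and 7.84 and 7.89 in CFZ_EA, a log2 fold change of 0.33 ± 0.13.

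Endothelial and smooth muscle markers, the other large cell types of the heart wall, had medians near that of all genes. Of 21 endothelial markers 9 lay above 0 with either choice of control (medians -0.03 and -0.04). Aqp1, a water channel, measured 178 and 137 FPKM in control, 278 and 239 in CFZ, and 245 and 189 in CFZ_EA, while Cldn5, of the tight junction, measured 27.0 and 25.8, 20.2 and 26.5, and 18.5 and 20.7. Of 15 smooth muscle and pericyte markers 7 lay above 0 with both controls and 9 without control replicate 2 (medians -0.04 and 0.03). Cytosolic ribosomal proteins had 4 of 33 above 0 with both controls (median -0.09) and 27 of 33 without control replicate 2 (median 0.06). Rps2 among them measured 479 and 559 in control, 412 and 405 in CFZ, and 339 and 359 in CFZ_EA, a log2 fold change of -0.50 ± 0.12 with both controls and -0.46 ± 0.13 with control replicate 1 alone, against the direction of its list in the second case.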

How the data were processed

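Messenger RNA was measured in 6 libraries of mouse heart, 2 per group. RNA was captured on oligo(dT) from extracts of integrity number over 7, per the labels' protocols, and libraries marked the second strand with dUTP. Per the submitters' processing notes, the tools named are StringTie 1.3.4d, HISAT2 2.0.4 and cutadapt 1.9, with the build GRCm38. Their roles, the annotation and the strand setting of the counting are not stated there. The authors deposited FPKM values per gene and library in 1 table. The deposited count columns, per the file headers, were taken as estimated counts and rounded. Of the counts from 1 to 20, 42.2% to 43.3% were multiples of 4 (25% by chance), so counting error may be larger than the counts show.

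Genes of mean FPKM of at least 1 were tested (9272 of the 10329 protein coding) with TMM factors of 0.955 to 1.08 and a quasi-likelihood model of group with 3 residual degrees of freedom (2 without control replicate 2). Genes with an adjusted p under 0.05 count as called. SE is that of the log2 fold change. An exact permutation of 4 libraries can reach no p below 0.333. No label ties replicates to separate mice, and p-values then reflect no more than the spread of these samples, possibly a technical one. The fits ran in edgeR 4.0.16 under R 4.3.3, with limma 3.58.1 and DESeq2 1.42.0 as alternatives, and Python 3.11.15 made the tables; the fit was tested on simulated data. The members and lists were chosen with earlier results of these data known. By rule, the genes named were up to 15 per direction of smallest p with both controls, up to 12 without control replicate 2, the 4 of smallest p per list, and a fixed set of 5 (the natriuretic peptides Nppa and Nppb, the myosins Myh6 and Myh7, and Psmb5); a part of them is given. Promoters are RefSeq sequences of GRCm38.p6. Alternatives covered the filter, scaling, test, libraries in the fit, replicate block, counts divided by 4, overlapping models and libraries left out.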

Additional observations from a re-analysis of the deposited data

How the results depend on the processing

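The finding of 0 called genes held under every alternative filter and scaling with both controls, and under limma, but not under DESeq2, which called 26 higher and 25 lower. Leaving out 1 library at a time gave 0 to 20 genes called higher and 0 to 211 called lower, the highest without control replicate 1; at an unadjusted p under 0.05 it gave 105 to 592 higher and 143 to 1140 lower. Without both control replicate 2 and CFZ_EA replicate 2, 1 gene was called higher and 211 were lower at the unadjusted threshold. The unadjusted counts were 302 higher and 782 lower with no filter, 280 and 640 with edgeR's filterByExpr, 89 higher with library totals, 93 and 95 higher with limma on log2(FPKM + 1) and log2(FPKM + 0.1), and 247 lower with only CFZ_EA and control in the fit. The replicate block gave 0 called genes, and 175 higher and 372 lower at the unadjusted threshold.

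With control replicate 1 alone, the 1 called gene became 2 higher and 1 lower with no filter, 58 and 17 under DESeq2, 0 higher with 2 groups in the fit, and 0 to 9 higher and 0 to 10 lower with a further library left out. limma called 1 lower with either pseudocount, as did the replicate block, which gave 236 higher and 229 lower at the unadjusted threshold. Other unadjusted counts were 411 and 265 with no filter and 350 and 259 with filterByExpr, and 170 to 206 higher and 177 to 211 lower with a further library left out.

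Of the named genes, Psmb5 reversed under library totals (-0.0325) and under limma on log2(FPKM + 1) (-0.0259) and log2(FPKM + 0.1) (-0.0261), and Scamp4 with overlapping models summed (-0.18). With 1 library left out, the log2 fold change ran from -6.25 to 0.13 for Tnc, -0.30 to 1.07 for Nppb, -0.0581 to 0.88 for mt-Nd5 and -2.43 to 0.55 for Fos, with the reversal without control replicate 2, and from -1.17 (without CFZ_EA replicate 2) to 1.46 for Nppa. The cause of these reversals was not tested. The differences between replicates 1 and 2 were nearly uncorrelated between groups (r of deviations of -0.0658, -0.0547 and 0.0752). With 2 libraries per group this cannot show whether replicates of the same number were paired.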
